A study of Mus musculus with 6 samples.

Results

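The TGF-beta and BMP pathway genes described here are 48 genes chosen by name for their known roles: 12 ligand genes, 10 signalling receptors, 3 co-receptors or decoys, 7 secreted antagonists and modulators, 4 latent TGF-beta binding proteins, 8 Smads and 4 Id genes. All 48 had a row in the deposited table of 24749 genes, matched through their Ensembl identifiers. Of these, 45 reached the minimum mean of 0.5 FPKM (fragments counted per kilobase of a transcript and relative to the depth of the library) over all libraries and were tested among 16899 genes. RNA sequencing was done on whole mouse kidneys of mixed strain, taken at E15.5, an embryonic day on which nephrons, stroma and vessels are all forming. There were 3 knockout libraries, in which Foxd1cre acts on floxed Yap (Yap1) and floxed Taz (Wwtr1) alleles, and 3 wild-type libraries, which the labels call Cre negative. An effect of carrying Foxd1cre therefore cannot be told apart from an effect of losing Yap and Taz. The labels do not state if wild-type animals carried floxed alleles, or if each library is a different embryo. The p-values therefore reflect only library-to-library spread, part of which may be technical. Cre acts in the Foxd1 stromal lineage only, while the RNA is that of the whole organ, so a value averages cells that lost the genes and cells that did not, and fewer cells of a type cannot be told apart from less RNA per cell.

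TGF-beta, activin and BMP ligands are secreted dimers that bring together a type II and a type I receptor kinase, which then phosphorylates receptor-regulated Smads that enter the nucleus with Smad4. TGF-beta and activin act mainly through Smad2 and Smad3, and BMPs through Smad1, Smad5 and Smad9, with the Id genes as classical BMP targets. In the embryonic kidney BMP7 sustains nephron progenitors, BMP4 from the mesenchyme around the ureter shapes its branching and muscle coat, and the balance with antagonists such as gremlin sets where the ureteric bud grows out.

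Across the pathway, 0 of the 45 tested members passed the test for knockout against wild type (limma on log2(FPKM + 1), Benjamini-Hochberg adjusted p under 0.05), where 0.734% of all genes tested passed. The member nearest to the threshold was Id4, which was higher in all 3 knockout libraries (136% of wild type, adjusted p = 0.0501), followed by Bmper (131% of wild type, adjusted p = 0.0889). At an unadjusted p under 0.05 there were 12 members, 26.7% of those tested against 16.1% of all genes, 8 of them higher (Tgfb1, Bmp7, Nog, Bmper, Smad3, Id2, Id3, Id4) and 4 lower (Bmp5, Bmp6, Acvr2a, Fstl3) in knockout kidneys. The share over all genes was 9.14% higher and 6.94% lower (1544 and 1172 genes), and with libraries rescaled to equal sums it leaned the other way (1005 and 1382 genes), with the median of all genes at -0.02 and 10 members left at that p. The knockout and wild-type libraries did not overlap for 15 members (33.3%, against 24.3% of all genes), 9 with knockout higher and 6 with knockout lower. Over all genes 2107 were apart with knockout higher and 1998 with knockout lower, or 1531 and 2236 with equal sums. Log2 changes ran from -0.40 to 0.44, with a median of 0.08 over the members and -0.002 over all genes tested. The plot of changes by role shows the Id genes and both inhibitory Smads to the right of 0, with the other roles on both sides.

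**Figure D1:**
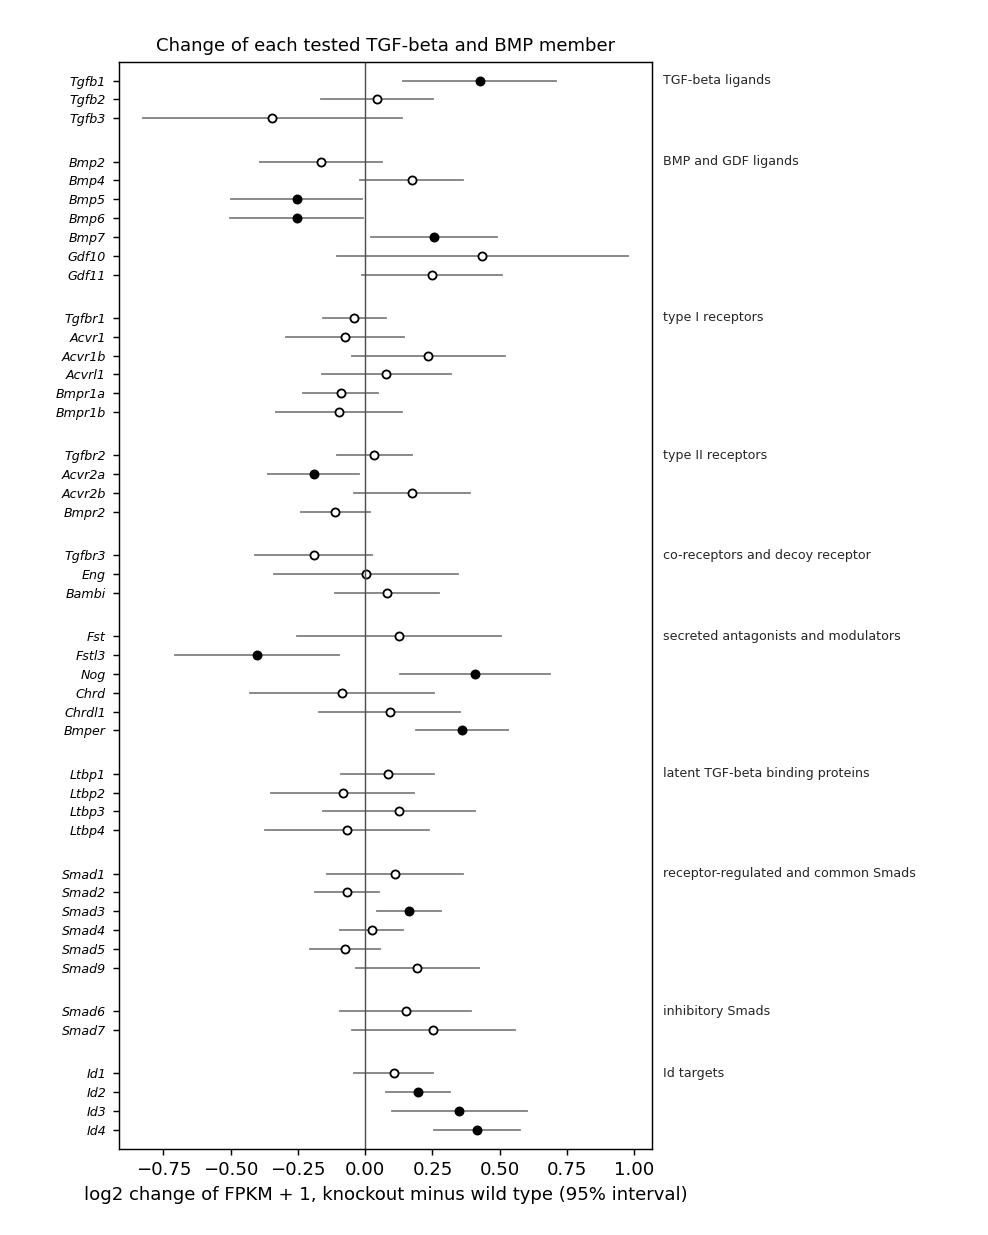
Log2 change of FPKM + 1, knockout minus wild type (horizontal axis), for the 45 tested members grouped by role, with 95% limma intervals from 3 libraries a group. Filled points have an unadjusted p under 0.05 (12 members) and open points do not; 0 members passed after adjustment.

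The promoter windows of Id4, Bmper and Tgfb1, members with small p and with no exon of their own in the window, are printed to show which letters of known binding motifs lie just before their start sites. Each line gives 250 bases upstream of the RefSeq start on GRCm38.p6, 5′ to 3′ on the gene's strand. GENCODE M21 places 0 exons of the gene itself in any of these 3 windows. Capitals mark a match to GGAATG (a core of TEAD sites, the factors through which YAP and TAZ act; CATTCC on the other strand) or to GGCGCC (a site bound by BMP-responsive Smads, the same on both strands). The windows lie at chr13:48260866-48261115 (Id4, plus strand), chr9:23222826-23223075 (Bmper, plus strand) and chr7:25686752-25687001 (Tgfb1, plus strand).
Id4: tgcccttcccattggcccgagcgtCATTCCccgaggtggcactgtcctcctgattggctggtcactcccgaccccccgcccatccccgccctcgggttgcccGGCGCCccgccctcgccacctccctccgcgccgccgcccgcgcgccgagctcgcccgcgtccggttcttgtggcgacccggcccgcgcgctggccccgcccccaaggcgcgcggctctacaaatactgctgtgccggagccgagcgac
Bmper: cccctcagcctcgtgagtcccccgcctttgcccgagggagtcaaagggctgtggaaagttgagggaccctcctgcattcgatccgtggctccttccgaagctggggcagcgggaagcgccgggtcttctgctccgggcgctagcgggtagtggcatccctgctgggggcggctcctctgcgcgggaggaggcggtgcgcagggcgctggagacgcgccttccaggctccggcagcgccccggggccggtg
Tgfb1: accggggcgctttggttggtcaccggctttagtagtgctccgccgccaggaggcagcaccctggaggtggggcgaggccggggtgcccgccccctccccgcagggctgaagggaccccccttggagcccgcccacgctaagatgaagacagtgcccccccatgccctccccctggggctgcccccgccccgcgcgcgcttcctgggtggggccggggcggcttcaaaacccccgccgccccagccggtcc
In Id4 a CATTCC starts 226 bases and a GGCGCC 148 bases before the RefSeq start, with no overlap between them. The windows of Bmper and Tgfb1 hold neither run of letters. RefSeq windows of 300 bases (250 before to 50 after the start) were found for 35 of the 48 members, 43 windows in all. GGAATG, on either strand, was in 2 of them (Id3 and Id4, 4.65%), against 14.7% of all 32851 windows. GGCGCC was in 14 of them, from 12 members that include Id2 and Id4 (32.6%), against 11.9% of all windows. The member windows are also richer in G and C (66.1% of bases, against 53.8% over all windows). The Smad box GTCT directly followed by its reverse complement was in 1 member window, that of Smad6, against 0.213% of all windows. A match is a run of letters and does not show that a factor binds there.

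The series-wide state of the libraries bears on what follows. Depth was approximated from the lowest steps of the values at 12700000 to 15400000 fragments per library. Wwtr1 fell to 68.4% of wild type (log2 -0.51, adjusted p = 0.0235), and Yap1 measured 88.9% of wild type without passing the test (adjusted p = 0.378). Both are whole-gene levels, and the position of the floxed exons was not used here. Wild-type library 3 stood apart in markers of neighbouring tissues: 4 skeletal muscle genes summed to 30.65 FPKM there against 1.16 to 6.58 in the other libraries, and 5 adrenal genes to 36.8 FPKM against 3.88 to 4.18. Most of that adrenal sum came from Th (17.8 FPKM) and Dbh (14.9 FPKM). Star was at 3.19 FPKM there, within its range of 3.08 to 3.66 FPKM in the other libraries. Cyp11a1 and Nr5a1 were highest there too, but only at 0.653 and 0.201 FPKM. Among the other marker lists, the summed level was lower in every knockout library for cortical stroma (416.7 to 438.5 against 464 to 490 FPKM, 1 of 8 genes called lower), mural and smooth muscle (130 to 138 against 173 to 185 FPKM, 2 of 9 called lower) and macrophages (29.6 to 30.9 against 32.8 to 34.1 FPKM, 0 of 7 called). It was higher in every knockout library for ureteric bud and collecting duct (238 to 245 against 200.5 to 211.4 FPKM, 0 of 9 called), nephron progenitors (158 to 167 against 140 to 151 FPKM, 0 of 7 called), early nephron (268 to 275 against 240 to 263 FPKM, 1 of 7 called higher), podocytes (93.6 to 107 against 81.2 to 92.0 FPKM, 0 of 6 called), endothelium (320 to 322 against 305 to 318 FPKM, 0 of 10 called), immediate early genes (34.2 to 36.6 against 20.04 to 29.5 FPKM, 0 of 6 tested called) and cartilage (9.497 to 11.1 against 6.54 to 8.46 FPKM, 0 of 2 tested called). Red blood cell genes overlapped (5872 to 8880 against 5150 to 8466 FPKM, 0 of 7 called). Within the cortical stroma list 6 genes lay below 0 and 2 above, Pdgfra (110.7% of wild type) and Aldh1a2 (111.4%). The largest drop in FPKM in that list was that of Dcn (means 61.3 and 29.3 FPKM), which was at 81.9 FPKM in wild-type library 3. The part these marker changes have in the members' values was not tested.

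One further property of the libraries concerns the members themselves. Wild-type library 1 was the lowest of the 6 libraries for 25 of the 45 tested members, against 25.8% of all genes tested, and knockout library 1 was the highest for 18, against 20.5%. The median deviation of the members from their own mean over 6 libraries was -0.10 (log2) in wild-type library 1 and 0.07 in knockout library 1, and between -0.01 and 0.03 in the other 4, while the median over all genes tested lay within 0.004 of 0 in each library. Without wild-type library 1 the median change of the members was 0.003 and 23 of 45 lay above 0, in place of 0.08 and 28 of 45. Without knockout library 1 these were 0.04 and 26. In the map of deviations 12 members lie above their own mean in wild-type library 1, 28 in knockout library 1 and 29 in wild-type library 3, where the median deviation was smaller (0.02).

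**Figure D2:**
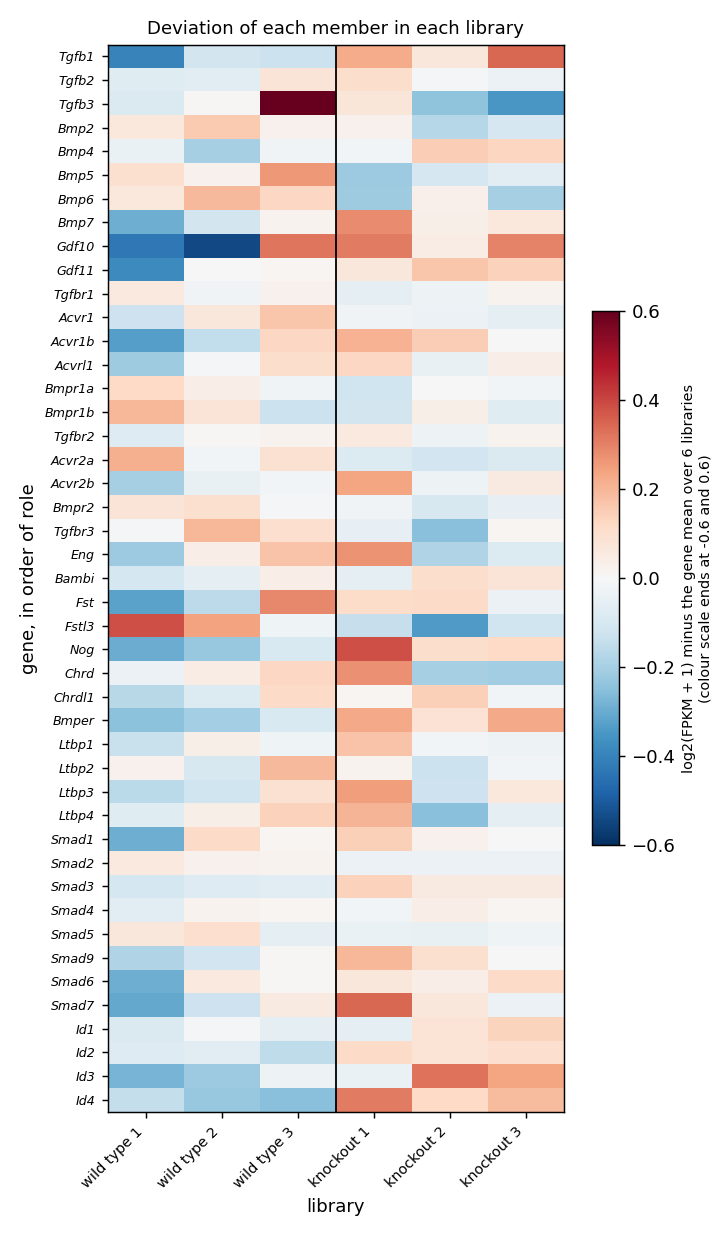
Deviation of log2(FPKM + 1) from the gene's mean over the 6 libraries, for the 45 tested members (rows, in order of role) in each library (columns; wild type left of the line, knockout right). Red is above and blue below the mean; 25 members have their lowest value in wild-type library 1 and 18 their highest in knockout library 1.

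Among the TGF-beta ligands, which drive matrix production and restrain proliferation in many tissues, levels in wild-type kidneys were ordered Tgfb3, Tgfb2, Tgfb1, with no overlap between neighbours in either genotype. Tgfb1 (chromosome 7, 25687002 to 25705077, GRCm38) measured 1.24, 1.74 and 1.71 FPKM in wild-type libraries 1 to 3 and 2.45, 2.10 and 2.76 FPKM in knockout libraries 1 to 3. All knockout values were above all wild-type values. The means were 1.56 ± 0.278 and 2.44 ± 0.329 FPKM (SD, n = 3 each), a log2 change of 0.43 with a 95% interval from 0.14 to 0.71, and it did not pass the test (adjusted p = 0.178). Tgfb1 stood at 156% of wild type, and on log2(FPKM + 0.1) its change was 0.62. Tgfb2 measured 3.496, 3.53 and 3.99 FPKM in wild-type and 4.10, 3.70 and 3.63 FPKM in knockout libraries, with overlapping groups and a log2 change of 0.04 (interval -0.17 to 0.25). Its sign turned without knockout library 1 (-0.00089). Tgfb3 measured 5.78, 6.22 and 9.88 FPKM in wild-type and 6.57, 5.08 and 4.64 FPKM in knockout libraries. The high wild-type value came from library 3, the library with high muscle markers and high Th and Dbh. Tgfb3 had a log2 change of -0.35 (interval -0.83 to 0.14) with that library and -0.13 without it, and it passed the test in neither case (adjusted p = 0.448 and 0.639).

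The activin and inhibin beta subunits were near the detection limit. Inhba was at 0.146 to 0.514 FPKM in wild-type and 0.311 to 0.471 FPKM in knockout libraries, and Inhbb at 0.145 to 0.204 and 0.132 to 0.218 FPKM. Both were under the minimum for testing, where a single fragment from a transcript of 2 kb comes to about 0.0325 to 0.0395 FPKM.

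Of the 7 BMP and GDF ligands 0 passed the test. For 5 the groups did not overlap (71.4%, against 24.3% of all genes tested), 3 with knockout higher and 2 with knockout lower. Bmp7 (chromosome 2, 172868012 to 172940321), the ligand with the highest level of the 12, measured 15.3, 17.5 and 19.2 FPKM in wild-type and 23.3, 19.5 and 19.9 FPKM in knockout libraries. Every knockout library was above every wild-type library, by a small margin between wild-type library 3 and knockout library 2. Its log2 change was 0.26 (interval 0.02 to 0.49, adjusted p = 0.275). Bmp4, expressed by ureteric mesenchyme, measured 9.26, 8.20 and 9.40 FPKM against 9.42, 10.7 and 10.5 FPKM, and Gdf11, which takes part in ureteric bud induction, 8.65, 11.5 and 11.7 FPKM against 12.2, 13.1 and 12.8 FPKM. Both pairs of groups were apart with knockout higher, for Bmp4 by a hair (9.40 against 9.42 FPKM), with log2 changes of 0.17 and 0.25 whose intervals took in 0 (-0.02 to 0.36 and -0.01 to 0.51). Bmp5 measured 1.78, 1.65 and 2.11 FPKM in wild-type and 1.23, 1.43 and 1.49 FPKM in knockout libraries. Bmp6 measured 1.68, 1.93 and 1.80 FPKM in wild-type and 1.22, 1.62 and 1.23 FPKM in knockout libraries. These related ligands both stood at about 75% of wild type (74.9% and 75.1%) with groups apart, each with a log2 change of -0.26 (interval -0.50 to -0.01, adjusted p = 0.292 and 0.297). On log2(FPKM + 0.1) these changes were -0.39 and -0.40. Exons on the opposite strand share 1878 bases with Bmp5 (Gm26903), 224 with Bmp6 (Txndc5) and 89 with Bmp4 (Gm15217). Txndc5 had means of 85.1 (wild type) and 90.4 FPKM (knockout), far above Bmp6, and Gm15217 of 0.985 and 0.535 FPKM. Bmp2 had means of 2.02 ± 0.145 (wild type) and 1.70 ± 0.189 FPKM (knockout; SD, n = 3 each; log2 -0.16). Gdf10, a ligand also known as BMP3b, measured 0.658, 0.535 and 1.79 FPKM in wild-type and 1.77, 1.31 and 1.75 FPKM in knockout libraries. Its highest wild-type value was again that of library 3, and its log2 change of 0.44 had an interval from -0.10 to 0.98. In the order of wild-type levels Bmp7 stood above Gdf11 without overlap, Gdf11 and Bmp4 overlapped, and Bmp2, Bmp5, Bmp6 and Gdf10 followed, each overlapping its neighbour.

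**Figure D3:**
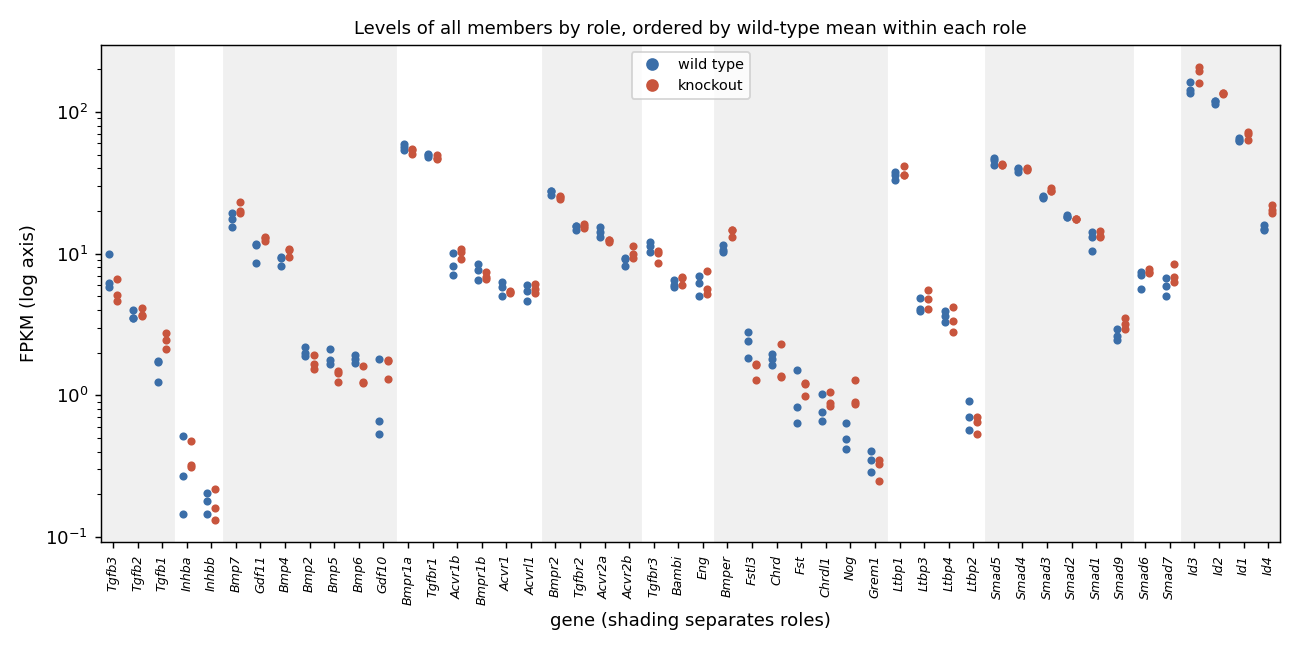
FPKM (log axis) of all 48 members in the 3 wild-type (blue) and 3 knockout (red) libraries, by role and ordered by the wild-type mean within each role. Id3 and Id2 lie above 100 FPKM and Inhba, Inhbb and Grem1 below 0.6 FPKM. Knockout means ran from 64.9% (Fstl3) to 197% (Nog) of the wild-type mean.

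Of the 10 signalling receptors 0 passed the test, and their log2 changes ran from -0.19 to 0.23. Bmpr1a, a type I receptor for BMPs, had the highest level, with means of 56.6 ± 2.77 (wild type) and 53.1 ± 2.42 FPKM (knockout; SD, n = 3 each; log2 -0.09, interval -0.23 to 0.05). Tgfbr1, the type I receptor for TGF-beta, followed at 49.3 ± 1.42 and 47.9 ± 1.32 FPKM (log2 -0.04, interval -0.16 to 0.08). These lay above the other type I receptors, with 5.85 times the FPKM of Acvr1b, the next in order, for Tgfbr1 in wild type. Acvr1b, an activin receptor, measured 7.06, 8.16 and 10.1 FPKM in wild-type and 10.7, 10.2 and 9.13 FPKM in knockout libraries (log2 0.23, interval -0.05 to 0.52, or 0.13 without wild-type library 1), with overlapping groups. Bmpr1b had a log2 change of -0.10, Acvr1 of -0.07 and Acvrl1, the endothelial receptor ALK1, of 0.08, and the groups overlapped for each.

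Of the type II receptors, Bmpr2 had the highest level, 27.5, 27.8 and 25.8 FPKM in wild-type and 25.6, 24.2 and 25.1 FPKM in knockout libraries. Acvr2a, which binds activins and several BMPs, measured 15.53, 13.1 and 14.2 FPKM in wild-type and 12.4, 12.2 and 12.4 FPKM in knockout libraries. For both genes all knockout values were below all wild-type values, with log2 changes of -0.11 (interval -0.24 to 0.02) and -0.19 (interval -0.36 to -0.02), and neither passed the test (adjusted p = 0.369 and 0.265). Acvr2b leaned the other way (log2 0.17, interval -0.04 to 0.39), with overlapping groups. Tgfbr2, which every TGF-beta signal needs, was at 15.3 ± 0.604 and 15.7 ± 0.529 FPKM (SD, n = 3 each), a log2 change of 0.03 with an interval from -0.10 to 0.17. Acvr2a shares 446 exon bases with Orc4 on the opposite strand, whose log2 change was -0.13. The labels do not say if the libraries kept strand, without which reads from such pairs cannot be told apart.

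The co-receptors overlapped between genotypes. Tgfbr3 (betaglycan), which presents TGF-beta2 and inhibin, measured 10.3, 12.1 and 11.2 FPKM in wild-type and 10.03, 8.60 and 10.5 FPKM in knockout libraries (log2 -0.19, interval -0.41 to 0.03). Eng (endoglin), an endothelial co-receptor, was at 6.08 ± 0.957 and 6.12 ± 1.21 FPKM (SD, n = 3 each; log2 0.004, interval -0.34 to 0.35), and its sign turned with the scaling to equal sums or when a library 1 was left out. Bambi, a decoy that lacks the kinase domain, had a log2 change of 0.08 (interval -0.11 to 0.27).

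Of the 6 tested antagonists and modulators 0 passed the test, and their log2 changes ran from -0.40 to 0.41. Bmper (chromosome 9, 23223076 to 23485200), an extracellular modulator of BMPs, measured 10.3, 10.6 and 11.5 FPKM in wild-type and 14.6, 13.2 and 14.6 FPKM in knockout libraries. The groups were clear of each other. The means were 10.8 ± 0.654 and 14.1 ± 0.821 FPKM (SD, n = 3 each), a log2 change of 0.36 with an interval from 0.19 to 0.53, and the adjusted p of 0.0889 did not pass. Nog (noggin), which binds BMPs and keeps them from their receptors, measured 0.418, 0.489 and 0.637 FPKM in wild-type and 1.28, 0.873 and 0.894 FPKM in knockout libraries. That is 197% of wild type at a low level, with groups apart and a log2 change of 0.41 on the log2(FPKM + 1) scale (interval 0.13 to 0.69, adjusted p = 0.184). With a pseudocount of 0.1 the Nog change was 0.85. Fstl3, a secreted inhibitor of activin, measured 2.77, 2.42 and 1.84 FPKM in wild-type and 1.62, 1.28 and 1.66 FPKM in knockout libraries. All knockout values were lower (64.9% of wild type, log2 -0.40, interval -0.71 to -0.10, adjusted p = 0.214), and Fstl3 shares 1157 exon bases on the opposite strand with Prss57, listed at 0 to 0.104 FPKM. Fst (follistatin), Chrd (chordin) and Chrdl1 overlapped between groups, with log2 changes of 0.13, -0.09 and 0.09. Fst was at 1.495 FPKM in wild-type library 3 and at 0.637 and 0.831 FPKM in wild-type libraries 1 and 2. Grem1 (gremlin) was at 0.285 to 0.404 FPKM in wild-type and 0.248 to 0.349 FPKM in knockout libraries, under the minimum for testing.

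**Figure D4:**
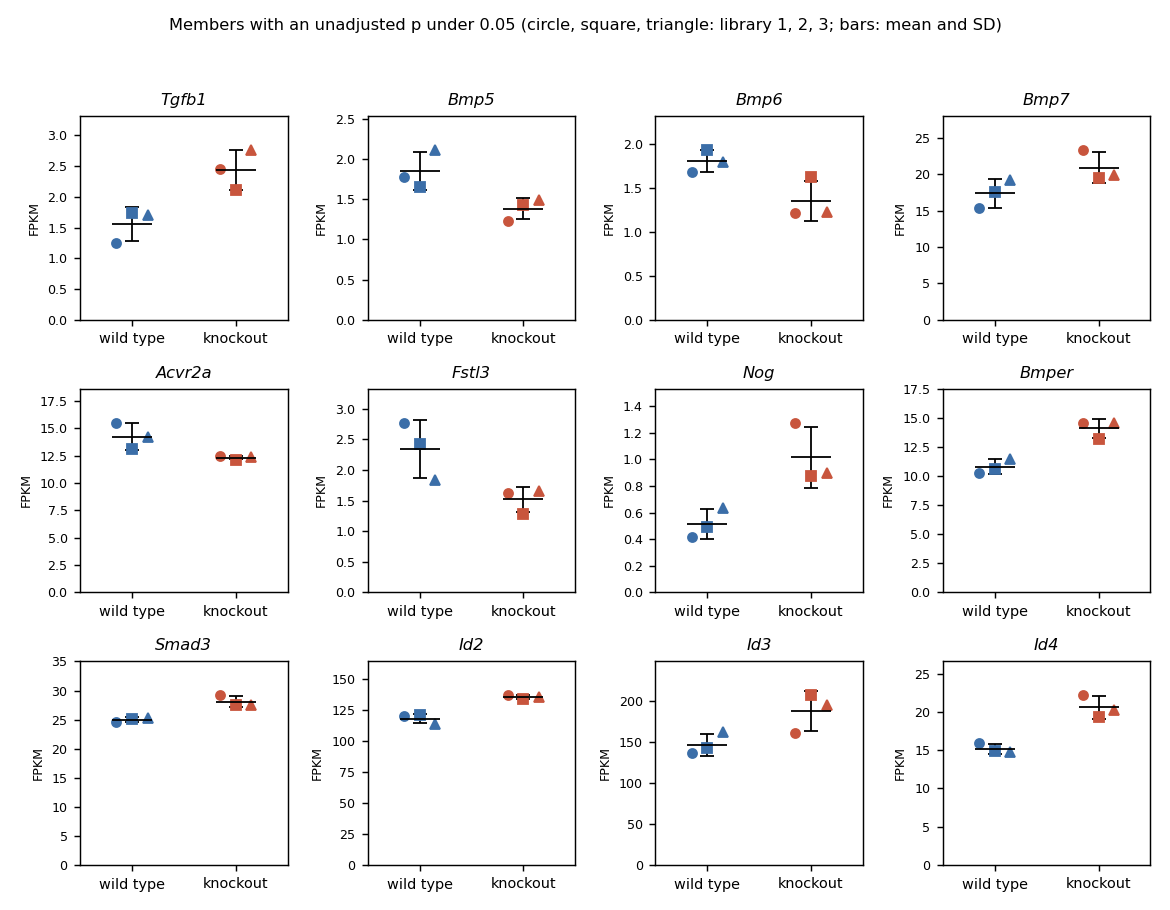
FPKM by library (circle, square and triangle for libraries 1, 2 and 3; bars are mean and SD, n = 3; each axis starts at 0) for the 12 members with an unadjusted p under 0.05. The groups do not overlap in any panel but that of Id3, where knockout library 1 (161 FPKM) lies just below wild-type library 3 (162 FPKM).

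The latent TGF-beta binding proteins, which tether inactive TGF-beta to the matrix, overlapped between genotypes for all 4 genes. Ltbp1 had by far the highest level, 33.3, 37.5 and 35.9 FPKM in wild-type and 41.4, 36.1 and 35.8 FPKM in knockout libraries (log2 0.08, interval -0.09 to 0.26), with a log2 change of 0.02 without knockout library 1. Its wild-type mean was 8.29 times that of Ltbp3, the next in order. Ltbp3 had a log2 change of 0.13, Ltbp4 of -0.07 and Ltbp2 of -0.08.

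The Smads were expressed in the same order in both genotypes: Smad5, Smad4, Smad3, Smad2, Smad1 and Smad9, with no overlap between neighbours among wild-type or among knockout libraries. Smad3 (chromosome 9, 63646767 to 63757994), which carries TGF-beta and activin signals, measured 24.5, 25.1 and 25.3 FPKM in wild-type and 29.2, 27.6 and 27.6 FPKM in knockout libraries. The groups were apart with a narrow spread (log2 0.16, interval 0.05 to 0.28, adjusted p = 0.199). Smad2, its partner in the same branch, measured 18.7, 18.2 and 18.2 FPKM in wild-type and 17.5, 17.5 and 17.4 FPKM in knockout libraries. These groups were also apart, in the other direction, at 95.1% of wild type (log2 -0.07, interval -0.19 to 0.05). Of the BMP branch, Smad5 was at 45.02 ± 2.62 and 42.6 ± 0.283 FPKM (log2 -0.07), Smad1 at 12.6 ± 1.92 and 13.6 ± 0.791 FPKM (log2 0.11) and Smad9 at 2.67 ± 0.245 and 3.20 ± 0.289 FPKM (log2 0.19; SD, n = 3 each). Smad4, the common partner, stood at 102% of wild type (interval of the log2 change -0.09 to 0.14). The inhibitory Smads, which are themselves induced by the pathway and feed back on it, were both above 0 with overlapping groups. Smad7 measured 5.05, 5.86 and 6.75 FPKM in wild-type and 8.49, 6.84 and 6.30 FPKM in knockout libraries (log2 0.25, interval -0.05 to 0.55), and Smad6 5.59, 7.42 and 7.11 FPKM against 7.47, 7.31 and 7.75 FPKM (log2 0.15, interval -0.09 to 0.39). In both genes wild-type library 1 was the lowest of the 6. Without it the log2 change was 0.04 for Smad6 and 0.16 for Smad7, and without knockout library 1 it was 0.14 for Smad7.

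The Id genes encode inhibitors of basic helix-loop-helix factors and are direct targets of BMP Smads in many cells. Id3, Id2 and Id1 had the highest levels of all members, and all 4 Id genes lay above 0 in the test and under each of the 14 alternatives run. Other filters, no robust moderation and the replicate block leave a change as it was, so no sign could turn there. For Id2 and Id4, whose groups do not overlap, leaving out a library could not turn the sign either. Id4 (chromosome 13, 48261228 to 48266026) measured 15.9, 14.96 and 14.7 FPKM in wild-type and 22.2, 19.3 and 20.3 FPKM in knockout libraries. The lowest knockout value lay well above the highest wild-type value. Means were 15.2 ± 0.624 and 20.6 ± 1.46 FPKM (SD, n = 3 each), a log2 change of 0.42 (SE 0.07, interval 0.26 to 0.57), and the adjusted p of 0.0501 sits on the threshold. It passed with a pseudocount of 0.1 (adjusted p = 0.0439) or 0.5 (0.0494) or with a minimum mean of 1 FPKM (0.0433), and over the 14 alternatives its adjusted p ran up to 0.188. Id4 shares 171 exon bases with Gm49291, which was not analysed here, and 82 with A330033J07Rik, both on the opposite strand. A330033J07Rik had means of 0.965 ± 0.101 (wild type) and 1.43 ± 0.0373 FPKM (knockout; SD, n = 3 each; log2 0.31, adjusted p = 0.191).

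Id2, with roles in many progenitors, measured 120, 120 and 113 FPKM in wild-type and 137, 134 and 135 FPKM in knockout libraries. The knockout libraries lay close together and above all wild-type libraries, with a log2 change of 0.20 (interval 0.08 to 0.32, adjusted p = 0.152). Id3 measured 136, 142 and 162 FPKM in wild-type and 161, 207 and 195 FPKM in knockout libraries, so that knockout library 1 fell within the wild-type range (log2 0.35, interval 0.10 to 0.60, adjusted p = 0.197). Id1 measured 62.1, 65.6 and 63.3 FPKM in wild-type and 63.4, 69.9 and 72.7 FPKM in knockout libraries, with overlapping groups (log2 0.11, interval -0.04 to 0.25). Id3, Id2, Id1 and Id4 kept this order in both genotypes, with no overlap between neighbours. The ureteric, nephron progenitor, early nephron, podocyte, endothelium, immediate early and cartilage marker sums given above were also higher in every knockout library. Those of cortical stroma, mural and smooth muscle, and macrophages were lower. The part of these sums in the Id values was not tested.

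A further list of pathway genes, chosen for function and not among the members, was measured beside them. Of 72 names 71 were in the table and 49 were tested; 0 passed the test, and 12 had an unadjusted p under 0.05, 6 in each direction (24.5%, against 16.1% of all genes). Their median log2 change was -0.01. The genes of TGF-beta activation held 4 of these. Thbs1 (thrombospondin 1), which can activate latent TGF-beta, measured 24.6, 23.2 and 20.1 FPKM in wild-type and 16.7, 15.4 and 15.4 FPKM in knockout libraries (log2 -0.48, interval -0.67 to -0.29). Its adjusted p was 0.054, and over the alternatives it ran from 0.0232 (without wild-type library 3) to 0.214 (without knockout library 3). Itgb8, the beta subunit of an integrin that frees TGF-beta, measured 4.41, 4.35 and 3.79 FPKM against 2.62, 2.69 and 3.06 FPKM (log2 -0.45, adjusted p = 0.0968). For both genes the knockout libraries were all below the wild-type libraries, as they were for Itgav, the alpha partner of Itgb8 (88.0% of wild type, named after its value was seen). Emilin1, a matrix protein that limits processing of the TGF-beta precursor, measured 49.2, 65.4 and 67.4 FPKM in wild-type and 81.8, 78.1 and 80.1 FPKM in knockout libraries (log2 0.41, interval 0.13 to 0.68, adjusted p = 0.183), with a log2 change of 0.26 without wild-type library 1.

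Dcn (decorin) is a matrix proteoglycan that binds TGF-beta, and it is also among the 8 genes of the cortical stroma list used here. It measured 52.8, 49.3 and 81.9 FPKM in wild-type and 28.6, 26.8 and 32.6 FPKM in knockout libraries. Its log2 change was -1.01 (interval -1.54 to -0.47). With the scattered wild-type values it did not pass (adjusted p = 0.145), and without wild-type library 3 it did (log2 -0.78, adjusted p = 0.0201). The highest adjusted p over the alternatives was 0.352, without knockout library 2. Cdkn1a, a cell-cycle inhibitor induced by TGF-beta among other signals, measured 2.31, 2.40 and 2.52 FPKM against 3.61, 3.16 and 3.27 FPKM (log2 0.35, adjusted p = 0.146). Kcp, an extracellular BMP modulator of the kidney, measured 5.54, 5.604 and 5.999 FPKM against 9.15, 6.77 and 7.13 FPKM (log2 0.36, adjusted p = 0.197). In both genes all knockout libraries were the higher ones. Among the 4 tested BMP response genes 0 passed the test, with log2 changes from 0.15 to 0.20 and 1, Tmem100 (named after its value was seen), at an unadjusted p under 0.05. Among the 8 tested TGF-beta response genes 0 passed, with log2 changes from -0.48 (Ccn2, named after its value was seen) to 0.35 (Cdkn1a). Of these 8, 3 had an unadjusted limma p under 0.05, 2 higher and 1 lower. The difference between these groups was not tested. In the plot of these further genes Dcn has the lowest value.

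**Figure D5:**
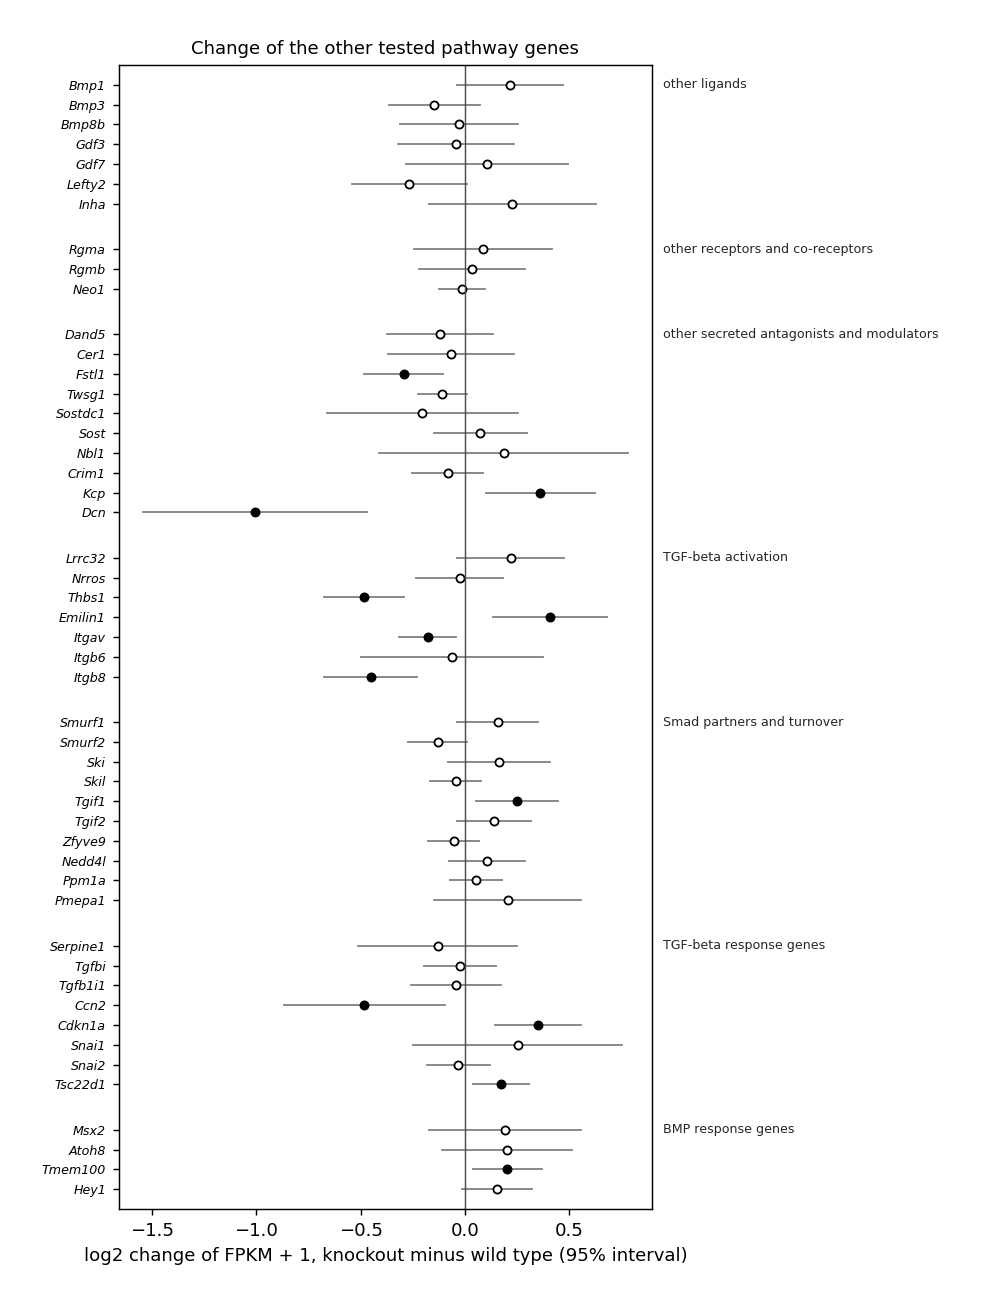
Log2 change of FPKM + 1, knockout minus wild type, for the 49 tested pathway genes outside the member list, by role, with 95% limma intervals from 3 libraries a group. Filled points have an unadjusted p under 0.05 (6 higher, 6 lower); 0 passed after adjustment.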

How the data were processed

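The submitters' processing notes name bcl2fastq 2.17.1.14, Salmon and the build GRCm38 (mm10), with no role or order. Which annotation and which strand setting were used, and how transcripts were summed to genes, is not stated there. Values are FPKM as the authors deposited them, and all 6 columns were used. FPKM is not a count, so no count model was fitted, and each library's depth was only approximated, from the lowest value step of genes with 1 annotated transcript of at least 2000 bases. A gene entered the test if its mean reached 0.5 FPKM, and was fitted on log2(FPKM + 1), with a pseudocount of 1, in limma 3.58.1 (R 4.3.3) with genotype as the only term, trend and robust moderation, and Benjamini-Hochberg adjustment over all 16899 genes at 0.05. Intervals are limma's 95% intervals. A percentage of wild type divides mean FPKM by mean FPKM. The pseudocount of 1 draws the log2 change of genes with low FPKM toward 0. Symbols and positions are from GENCODE M21, on GRCm38, and promoter windows from RefSeq on GRCm38.p6.

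The members, the lists and the tests were chosen with earlier results of these data known. Named are called members, up to 3 per role with the smallest p, the highest member per role, and 3 other pathway genes per direction; further members are named to account for all 48. The marker lists cover cortical stroma, mural and smooth muscle, endothelium, nephron progenitors, early nephron, podocytes, ureteric bud and collecting duct, macrophages, red blood cells, cartilage, skeletal muscle, adrenal and immediate early genes. On 10 simulated tables of 16899 genes 56.6% of the genes given a log2 change of 0.5 and 91.0% of those given 1 were called, with 7.07% false among its calls.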

Additional observations from a re-analysis of the deposited data

How the results depend on the processing

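There were 14 alternatives (pseudocounts of 0.1 and 0.5, other filters, rescaling to equal sums, quantile normalization, no robust moderation, a replicate block, and each library left out). The count of members called was 0, except 1 (Id4) with a pseudocount of 0.1 or 0.5 or a minimum of 1 FPKM; without any 1 library it was 0. Members at an unadjusted p under 0.05 numbered 8 to 15 over all alternatives, the lowest without wild-type library 1 and the highest without wild-type library 3, while all genes at that p numbered 1897 (without knockout library 3) to 3268 (without wild-type library 3). Members whose groups do not overlap numbered 17 to 28 without 1 library, 28 without wild-type library 3, where fewer values make separation easier: over all 16899 genes the count went from 4105 to between 5302 and 6655, the highest again without wild-type library 3. Other pathway genes called were 0, except 1 (Thbs1) with a pseudocount of 0.1 or a minimum of 1 FPKM and 2 (Dcn, Thbs1) without wild-type library 3. Of all genes tested, 124 were called, 32 with the replicate block, and 52 to 147 without 1 library, 52 without wild-type library 2 and 66, 57 and 58 without knockout libraries 1, 2 and 3. Same-numbered libraries did not deviate together (correlations 0.02, -0.04 and 0.05, where all pairs ran from -0.09 to 0.08). With 3 libraries a group such correlations cannot exclude that the numbers pair them. The block called 0 members. Of 36 named genes tested, 34 kept their sign under every alternative that tested them. Other filters, no robust moderation and the replicate block leave a change as it was, so they could not turn a sign. Leaving out a library cannot turn it where the groups do not overlap. Tgfb2 turned to -0.00089 without knockout library 1 (up to 0.0903 without others), and Eng to -0.0115 with equal sums, -0.105 without wild-type library 1 and -0.13 without knockout library 1 (up to 0.0965 without others); the cause was not tested. Genes under about 1 FPKM (Nog, Fst, Chrdl1, Ltbp2) rest on few fragments.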

Other observations

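Of the 71 further pathway genes in the table, 22 stayed under the minimum for testing. The highest was Msx1, a homeobox target of BMP, at 0.166 to 0.753 FPKM. Nodal (0.103 to 0.419 FPKM), Amh (0.245 to 0.485 FPKM) and its receptor Amhr2 (0.222 to 0.526 FPKM) had a value above 0 in all 6 libraries. Gdf2, which encodes the circulating ligand BMP9, was listed at 0 in 3 libraries and at most at 0.0258 FPKM, and Mstn (myostatin) reached its highest value, 0.275 FPKM, in wild-type library 3, where skeletal muscle markers were also highest.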
